A study of Danio rerio with 3 samples.

Results

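The genes followed here are 7 zebrafish cartilage genes that do not encode collagens: sox9a (ENSDARG00000003293), matn1 (ENSDARG00000030215), matn4 (ENSDARG00000015947), acana (ENSDARG00000035891), cnmd (ENSDARG00000100133), fgfbp2b (ENSDARG00000038056) and otos (ENSDARG00000108475). They were taken by name, 7 of 31467 gene identifiers in each matrix, and every one of them was detected in every library. Wild-type zebrafish larvae of 48 h post fertilisation (hpf), 10 pooled per sample, were taken apart at 37°C for 30 min in a buffer with 10 mM 4-thiouridine (4sU), a uridine analogue that enters RNA made during that time and, after iodoacetamide treatment of the fixed cells, turns T into C in the reads. The FACS and ice library was made from cells sorted by fluorescence-activated cell sorting (FACS) and then kept on ice for 30 min, the FACS library from cells fixed after the sort, and the dissociation library from cells fixed straight after dissociation. Both sorted samples met 4sU once more in the chilled collection tube, and the sort kept all but debris and extremes of size and granularity. Every group was 1 library, so no replicate error exists and no test between groups was run. The intervals are 95% intervals and cover counting error only. Those on reads understate even that, because reads of 1 RNA molecule are not independent.

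Cartilage is made by chondrocytes, which at this age lie mostly in the head skeleton and the pectoral fin and surround themselves with a matrix of collagens, proteoglycans and linking proteins. Sox9 is the transcription factor that chondrocytes of all vertebrates depend on, and it switches on collagen and aggrecan genes. Of the matrix genes here, acana encodes aggrecan, the large proteoglycan that holds water in cartilage, and matn1 and matn4 encode matrilins, adaptor proteins that tie collagen fibrils to proteoglycans. The gene cnmd encodes chondromodulin, which in mammals keeps blood vessels out of cartilage, fgfbp2b encodes a secreted protein of the family that binds fibroblast growth factors, and otos encodes otospiralin, known in mammals from the inner ear.

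The libraries held 9550, 4609 and 11043 cells (FACS and ice, FACS, dissociation alone), with a median of 3995, 3143 and 2402 unique molecular identifiers (UMIs, tags that mark single RNA molecules) per cell. Of all UMIs, 20096 (0.0328%), 9638 (0.0417%) and 12916 (0.0257%) came from the 7 genes. At most 28 cell barcodes were shared between a pair of libraries. The authors deposited read counts for each of their cell types, 14 or 15 types per library, and named these types from marker genes. The 7 genes may be among those markers, so cartilage against the other types is given as a description. These tables are sums over cells, in which more positive cells and more RNA per cell cannot be told apart. They count reads, and several reads can come from 1 molecule. For acana after FACS there were 279 reads over all types and 29 UMIs. Intervals on reads are therefore too narrow for molecules.

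Cartilage collagens were high in the cartilage tables. They may be among the markers from which the authors named this type, so this too is a description. All 9 genes of a list of cartilage collagens had enough reads, and 8, 8 and 9 of them were at least 5-fold higher in cartilage than in the other cell types pooled after FACS and ice, after FACS and after dissociation alone. The leading one, col2a1a (collagen II), stood at 2888, 2758 and 2705 RPM (reads per 1000000 reads of the table). Genes of other cell types also differed between these tables. The bone gene col10a1a had 499.8 and 524 RPM in the cartilage tables of FACS and ice and of FACS, against 1.69 RPM after dissociation alone, and ifitm5, which marks bone-forming cells, had 256 and 725 RPM against 0.508 RPM. The notochord gene cmn had 43.2, 0 and 0.677 RPM, and the muscle gene mylpfa had 9.51, 5.23 and 326 RPM, against 124, 39.8 and 2921 RPM in the other cell types pooled. The inner ear gene stm had 19.5, 248 and 91.4 RPM. Of the whole lists, 4, 4 and 1 of 4 bone genes with enough reads were at least 5-fold higher in cartilage, 5 of 8, 1 of 4 and 0 of 5 notochord genes, 2 of 4, 3 of 4 and 1 of 3 inner ear genes, and 0 of 6 muscle genes in each library. The gene entpd5a is on both the bone and the notochord list, and after FACS it was the only notochord gene counted. The part of cells of other types in the differences between libraries was not tested.

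Each of the 7 genes had a higher RPM in cartilage than in any other cell type of the same library, and each was at least 5-fold higher in cartilage than in the other types pooled, in all 3 libraries. Among all genes with at least 100 reads in a library, 2.05% (FACS and ice), 2.85% (FACS) and 2.2% (dissociation alone) passed this 5-fold limit. By level in cartilage fgfbp2b led in every library, at 1808, 1888 and 1484 RPM (FACS and ice, FACS, dissociation alone). Next stood cnmd, at 973, 724 and 1177 RPM, and matn4, at 646, 793 and 860 RPM, which changed places in the FACS library. In the middle were matn1, at 499.7, 161 and 241 RPM, and otos, at 220 RPM, 333 RPM and 462 RPM. At the low end stood sox9a, at 49.5, 16.6 and 15.1 RPM, and acana, at 31.8, 18.6 and 22.0 RPM. Reads come from the 3′ end of each RNA, so these levels were not divided by gene length.

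**Figure D1:**
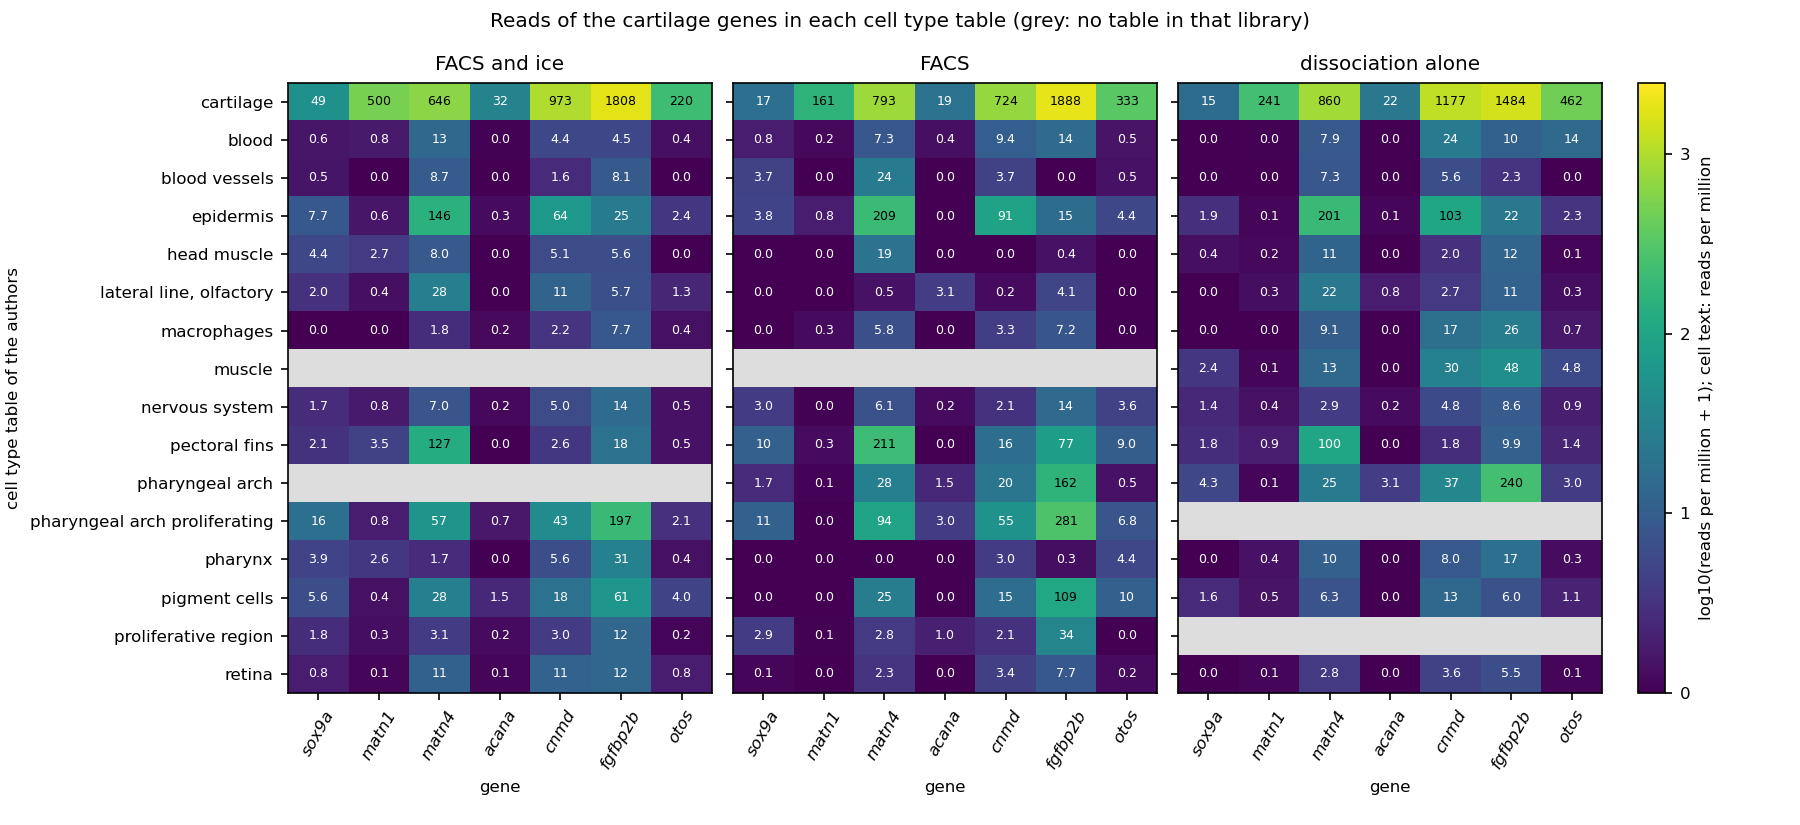
RPM of each of the 7 genes (columns) in each cell type table (rows) of the 3 libraries (panels), with the colour on a log10 scale; grey rows mark types with no table in that library. The cartilage row is highest for every gene, with a second band for matn4 and cnmd in the type the authors named epidermis, for matn4 in pectoral fins and for fgfbp2b in the pharyngeal arch.

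The genes differed in how closely they kept to cartilage. The matrilin matn1 kept closest, with 96.6%, 97.8% and 96.7% of its reads in cartilage and a level 667-fold (566 to 792), 968-fold (683 to 1420) and 947-fold (710 to 1291) above the other types pooled. It ranked 4, 3 and 2 among the 15227, 14125 and 14483 genes ordered by this fold. Otospiralin followed, at 230-fold, 152-fold and 145-fold, with its highest level elsewhere in pigment cells after FACS and ice (3.97 RPM) and after FACS (10.2 RPM) and in blood after dissociation alone (14.0 RPM). Aggrecan (acana) was 127-fold, 31.8-fold and 52.5-fold higher in cartilage and did not appear in the tables of 5, 8 and 9 of the 13, 14 and 13 other types.

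The other 4 genes were also read outside cartilage. Chondromodulin was 54.6-fold, 40.8-fold and 60.1-fold higher in cartilage, and its next level was in epidermis, at 64.4, 90.9 and 103 RPM. The growth factor binding gene fgfbp2b was 54.0-fold, 43.1-fold and 45.4-fold higher, with its next level in the pharyngeal arch: 197 RPM in the proliferating arch cells after FACS and ice, 281 RPM in the same type and 162 RPM in the remaining arch cells after FACS, and 240 RPM in the arch after dissociation alone. The matrilin matn4 was 17.7-fold, 21.0-fold and 33.9-fold higher, and epidermis held 146, 209 and 201 RPM and pectoral fins 127, 211 and 100.0 RPM. Least set apart was the regulator sox9a, at 12.2-fold (10.8 to 13.7), 6.87-fold (5.68 to 8.29) and 12.2-fold (9.47 to 15.7), with 34.0%, 24.3% and 27.7% of its reads in cartilage. Its cartilage level was 3.02, 1.57 and 3.52 times that of the pharyngeal arch cells with the next highest level. The names of the types are those of the authors. In every library the epidermal genes krt4, cyt1 and krt5 were highest in pharynx, krt4 at 59077, 40289 and 62656 RPM. Of the fibroblast genes, col1a2 (1271, 1824 and 1355 RPM) and col1a1b were highest in the type named epidermis, and col1a1a in pectoral fins. Which cells the type named epidermis holds was not tested.

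Other genes of the same pathway were counted from lists. Of regulators of chondrocyte formation other than sox9a, 2 of 10, 2 of 10 and 3 of 9 with enough reads were at least 5-fold higher in cartilage. Among the 3 with most reads there, nkx3.2, a repressor that favours chondrocytes, was 5.60-fold, 1.83-fold and 5.45-fold higher, fgfr3, a receptor that restrains cartilage growth, 4.84-fold, 3.99-fold and 4.82-fold, and sox6, a partner of Sox9, 3.83-fold, 4.81-fold and 3.19-fold. Of other cartilage matrix genes, 13 of 21, 9 of 18 and 8 of 20 passed the limit, and the median fold over this list was 6.92, 5.00 and 3.89, beside 0.880, 0.913 and 0.929 over all genes. Of its 3 genes with most cartilage RPM after FACS and ice, mia (727-fold, 966-fold and 688-fold) and epyc, which encodes a small proteoglycan of cartilage (232-fold, 84.4-fold and 55.5-fold), were far above the limit in all 3 libraries, while hapln1a, which links aggrecan to hyaluronan, was 3.39-fold, 3.97-fold and 5.54-fold higher.

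Genes were compared over all 43 cell type tables by log2(RPM + 1). Only the 4173 other genes with at least 250 reads in the cartilage tables summed were searched, a limit that favours genes read in cartilage. Of these, the mean of the 7 genes was followed best by col2a1a (Pearson r = 0.94), col9a2, AL929222.2 and col9a1a (0.93 each) and col9a3 (0.92). For single genes the closest were tnxba for matn1 (0.97), tgfbi for matn4 (0.92), abtb2a for acana (0.92), col9a1a for cnmd (0.92), col2a1a for otos (0.87) and fgfbp2b (0.83), and itgb1a for sox9a (0.81). Between the 7 genes r ran from 0.55 (matn4 with acana) to 0.85 (cnmd with otos). Tables of 1 library share its cell suspension and depth, so these values are given as a description.

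The second question was whether the levels differed between the 3 ways of preparing the cells. In whole libraries, in CPM (UMIs per 1000000 UMIs of the library), the chondrocyte regulator sox9a had 4.77 CPM after FACS and ice and 3.03 CPM after FACS, against 1.77 CPM after dissociation alone. The matrilin matn1 had 21.4 and 9.01 CPM, against 7.63 CPM. For both genes the FACS and ice library was highest and its interval overlapped neither of the others. The other matrilin, matn4, had 72.2 and 92.6 CPM, against 60.5 CPM, so that its highest level was in the FACS library. Aggrecan had 1.62 and 1.26 CPM, against 1.13 CPM, from 99, 29 and 57 UMIs, and its intervals overlapped in all 3 libraries. Chondromodulin differed little, with 59.6 and 53.2 CPM, against 49.0 CPM. The gene fgfbp2b had 161 and 242 CPM, against 123 CPM, so that this most abundant of the 7 was, like matn4, highest after FACS. Only otospiralin was lowest after FACS and ice, with 7.92 CPM and then 16.7 CPM after FACS, against 14.0 CPM after dissociation alone.

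**Figure D2:**
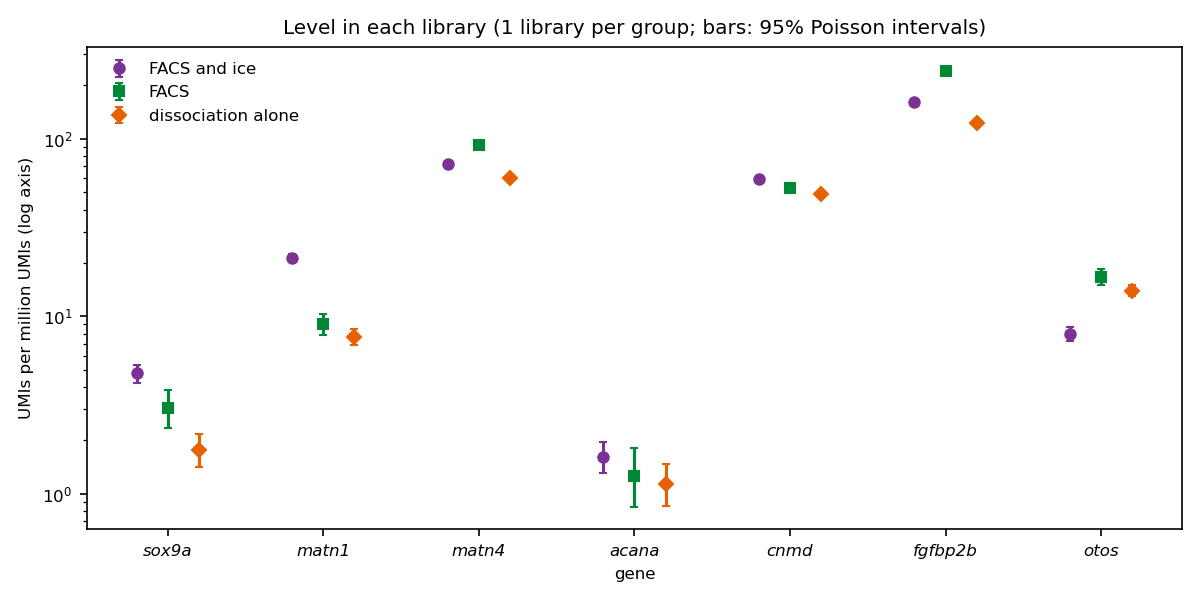
CPM (log axis) of each gene in the FACS and ice, FACS and dissociation libraries; points are single libraries and bars 95% Poisson intervals. The FACS and ice point is the highest of the 3 for sox9a, matn1 and cnmd, the FACS point for matn4, fgfbp2b and otos, and the 3 intervals of acana overlap.

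FACS and ice over dissociation alone, 2 of the 7 genes were at least 1.5-fold higher and 1 was at least 1.5-fold lower; among 4559 genes with at least 250 UMIs in every library, 11.8% were that much higher and 4.41% that much lower, and the median ratio was 1.15. The genes past the limit were matn1 (2.80-fold, 2.50 to 3.15), sox9a (2.70-fold, 2.12 to 3.46) and otos (0.567-fold, 0.504 to 0.637). Counted per cell instead, 6 genes were past the limit and higher and 0 lower, and the cells of this library held more UMIs of all genes. No share over all genes was counted on that scale, so the count of 6 does not set these genes apart. FACS over dissociation alone, 3 genes were at least 1.5-fold higher, fgfbp2b (1.97-fold, 1.90 to 2.04), sox9a (1.71-fold, 1.23 to 2.37) and matn4 (1.53-fold, 1.45 to 1.62), and 0 were that much lower, beside 4.96% and 5.02% of all genes. FACS and ice over FACS, matn1 (2.37-fold) and sox9a (1.57-fold) were higher and otos (0.474-fold) and fgfbp2b (0.665-fold) lower by the limit, 2 genes each way, beside 4.3% and 1.18% of all genes. Of the 7, sox9a, matn1 and acana had under 250 UMIs in at least 1 library and were not among these 4559 genes.

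Some of these differences rested on few cells. The 10 cells with most UMIs of matn1 held 71.4%, 79.3% and 64.8% of its UMIs, and those of otos 38.8%, 57.3% and 40.7%. Without them, a choice made after the values were seen, the ratio of FACS and ice to dissociation alone was 2.28-fold for matn1 and 0.585-fold for otos. FACS over dissociation alone, however, sox9a then stood at 1.36-fold and matn4 at 1.45-fold, below the limit, and the ratio of otos turned to 0.864-fold. In the cells rich in cartilage collagens described below, the FACS ratio to dissociation alone was 1.46-fold for fgfbp2b, 1.15-fold for matn4 and 0.583-fold (0.0973 to 2.55) for sox9a, so none of the 3 passed there, and sox9a rested on 3 UMIs against 7 UMIs. FACS and ice over FACS, both lower calls were lost in these settings as well. There otos stood at 0.713-fold in collagen-rich cells and 0.677-fold without its 10 top cells, and fgfbp2b at 0.972-fold and 0.781-fold. In the cell type tables otos kept the call, at 0.662-fold (0.624 to 0.702) in cartilage and 0.436-fold in the other types. For fgfbp2b these ratios were 0.958-fold and 0.765-fold.

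Within the cartilage tables, sox9a was 3.29-fold (2.61 to 4.18) and matn1 2.07-fold (1.95 to 2.20) higher in RPM for FACS and ice over dissociation alone, and otos 0.477-fold (0.450 to 0.506). These 3 ratios had the direction of the whole library, and so had the other cell types, where they were 3.30-fold, 2.94-fold and 0.300-fold. Both matn4 (0.751-fold, 0.723 to 0.781) and cnmd (0.827-fold, 0.801 to 0.854) were lower in the cartilage table after FACS and ice, although their CPM in the whole library was higher. FACS over dissociation alone, fgfbp2b was 1.27-fold higher in cartilage, while cnmd (0.616-fold), matn1 (0.668-fold) and otos (0.721-fold) were lower. For the other cell types pooled, the FACS and ice ratio to dissociation alone was 1.44-fold for matn4 and 0.909-fold (0.868 to 0.953) for cnmd. In that comparison cnmd was therefore lower in both kinds of table and higher only in the UMI matrix. The bone, notochord and muscle genes given above differed between the same tables.

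To look at single cells without using the 7 genes, cells of at least 500 UMIs in which 9 cartilage collagen genes made up 1% or more were taken as collagen-rich. There were 88, 52 and 83 of them (0.921%, 1.13% and 0.752% of cells). The limit cuts a continuous range and is no cell type: 26, 14 and 24 of these cells lay at 1 to 1.25%, and 31, 29 and 34 cells just under it at 0.75 to 1%. Their median depth was 5367, 5338 and 4017 UMIs, against 3984, 3122 and 2388.5 UMIs in the other cells. Of the other marker lists in these cells, the fibroblast list was 3.80-fold, 3.13-fold and 2.23-fold higher than in the other cells and all 7 of its genes were found. The inner ear list was 1.17-fold, 6.78-fold and 3.55-fold, in 7 cells, 7 cells and 11 cells. The endothelium list was 1.29-fold, 2.00-fold and 2.94-fold, but only 3, 2 and 1 of its 5 genes were found. After dissociation alone that gene was fli1a, and kdrl, cdh5, pecam1 and tie1 had no UMI. The notochord list was 12.8-fold, 1.17-fold and 2.12-fold, in 15, 8 and 16 of the cells, the bone list 6.03-fold, 0.0391-fold and 0.405-fold, in 4, 1 and 3 of the cells, while the macrophage list held 3 UMI-positive genes after FACS and ice and none in the other libraries.

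In collagen-rich cells matn4 was found most often, in 84.1%, 92.3% and 92.8% of cells, followed by cnmd in 77.3%, 76.9% and 85.5% and fgfbp2b in 64.8%, 55.8% and 67.5%. Otospiralin was found in 46.6%, 46.2% and 44.6%, and matn1 in 26.1%, 23.1% and 27.7%. The low genes were acana, in 22.7%, 11.5% and 16.9%, and sox9a, in 21.6% (13.5 to 31.6), 3.85% (0.469 to 13.2) and 7.23% (2.70 to 15.1). In the other cells the shares were 10.3%, 8.62% and 6.77% for matn4, 7.27%, 6.28% and 5.65% for cnmd, 8.97%, 7.22% and 7.84% for fgfbp2b, 2.39%, 1.23% and 0.739% for sox9a, and under 1% for matn1, acana and otos.

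As a background, haemoglobin-rich cells, which should lack these genes and held a median of 7708, 9160 and 9552 UMIs, had a UMI of matn4 in 2.93%, 3.43% and 2.92%, of fgfbp2b in 4.83%, 3.12% and 6.26%, of cnmd in 1.55%, 4.05% and 1.67%, and of matn1 in 0.862%, 0.312% and 0.209%. For otos the shares were 0.172%, 0.312% and 0.418%, and for sox9a 0.345% and 0.312% after FACS and ice and after FACS, with 0 of 479 cells after dissociation alone. The haemoglobin-rich cells held 56 UMIs of fgfbp2b in 28 cells, 181 in 10 and 83 in 30, but 5 UMIs of matn1 in 5 cells, 1 in 1 and 1 in 1. Whether these UMIs came from free RNA or from doublets, which were not called, was not tested. The share in the other cells lay within the 95% interval of this background for matn1, acana and otos in all 3 libraries. It did so too for sox9a after FACS and after dissociation alone, for cnmd after FACS and for fgfbp2b after dissociation alone. By themselves those shares are not read as expression, but the 2 kinds of cell differ in depth. In CPM the other cells lay above the background interval in each of these cases except acana after FACS and after dissociation alone. For fgfbp2b after dissociation alone they had 92.7 CPM, against 17.4 CPM (13.8 to 21.5) in haemoglobin-rich cells. For cnmd after FACS the levels were 35.2 CPM and 7.29 CPM (4.88 to 10.5). CPM divides by all UMIs of the cells, of which haemoglobin-rich cells held more. It lowers their background wherever free RNA does not grow with the depth of a cell, which was not tested. The CPM contrast by itself is therefore not read as expression either. No acana UMI was found in 580, 321 and 479 haemoglobin-rich cells, which allows a share of up to 0.517%, 0.935% and 0.626%. Another class, the 92, 35 and 56 cells with at least 2 macrophage markers, gave a higher background for the abundant genes. It had matn4 in 10.9%, 11.4% and 7.14%, cnmd in 5.43%, 8.57% and 12.5%, and fgfbp2b in 5.43%, 5.71% and 12.5%. For these genes the share in the other cells lay within its 95% interval in all 3 libraries. Its level was 36.2 CPM (19.8 to 60.7) for cnmd after FACS and 33.5 CPM (21.3 to 50.3) for fgfbp2b after dissociation alone. Thinned to 1000 UMIs per cell, with 7, 5 and 4 collagen-rich cells left out as too shallow, the share of collagen-rich cells was 63.4%, 72.2% and 72.9% for matn4 and 4.37%, 0.601% and 1.52% for sox9a, against 0.402%, 0.315% and 0.206% for sox9a in the other cells.

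By level, collagen-rich cells exceeded the other cells most for matn1 (826-fold, 384-fold and 570-fold in CPM), then for otos (216-fold, 121-fold and 123-fold), acana (95.6-fold, 49.1-fold and 64.6-fold), cnmd (72.7-fold, 42.5-fold and 67.0-fold), fgfbp2b (51.4-fold, 34.0-fold and 43.2-fold), matn4 (23.8-fold, 29.1-fold and 36.7-fold) and sox9a (12.1-fold, 3.60-fold and 11.03-fold). The interval of sox9a after FACS, 0.724 to 10.97, included 1. In each of the 3 libraries matn1 came first and otos second, and sox9a last. Collagen-rich cells held 88.2%, 82.7% and 81.5% of all matn1 UMIs, but 17.8%, 26.6% and 22.1% of those of matn4 and 9.93%, 4.29% and 7.87% of those of sox9a.

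**Figure D3:**
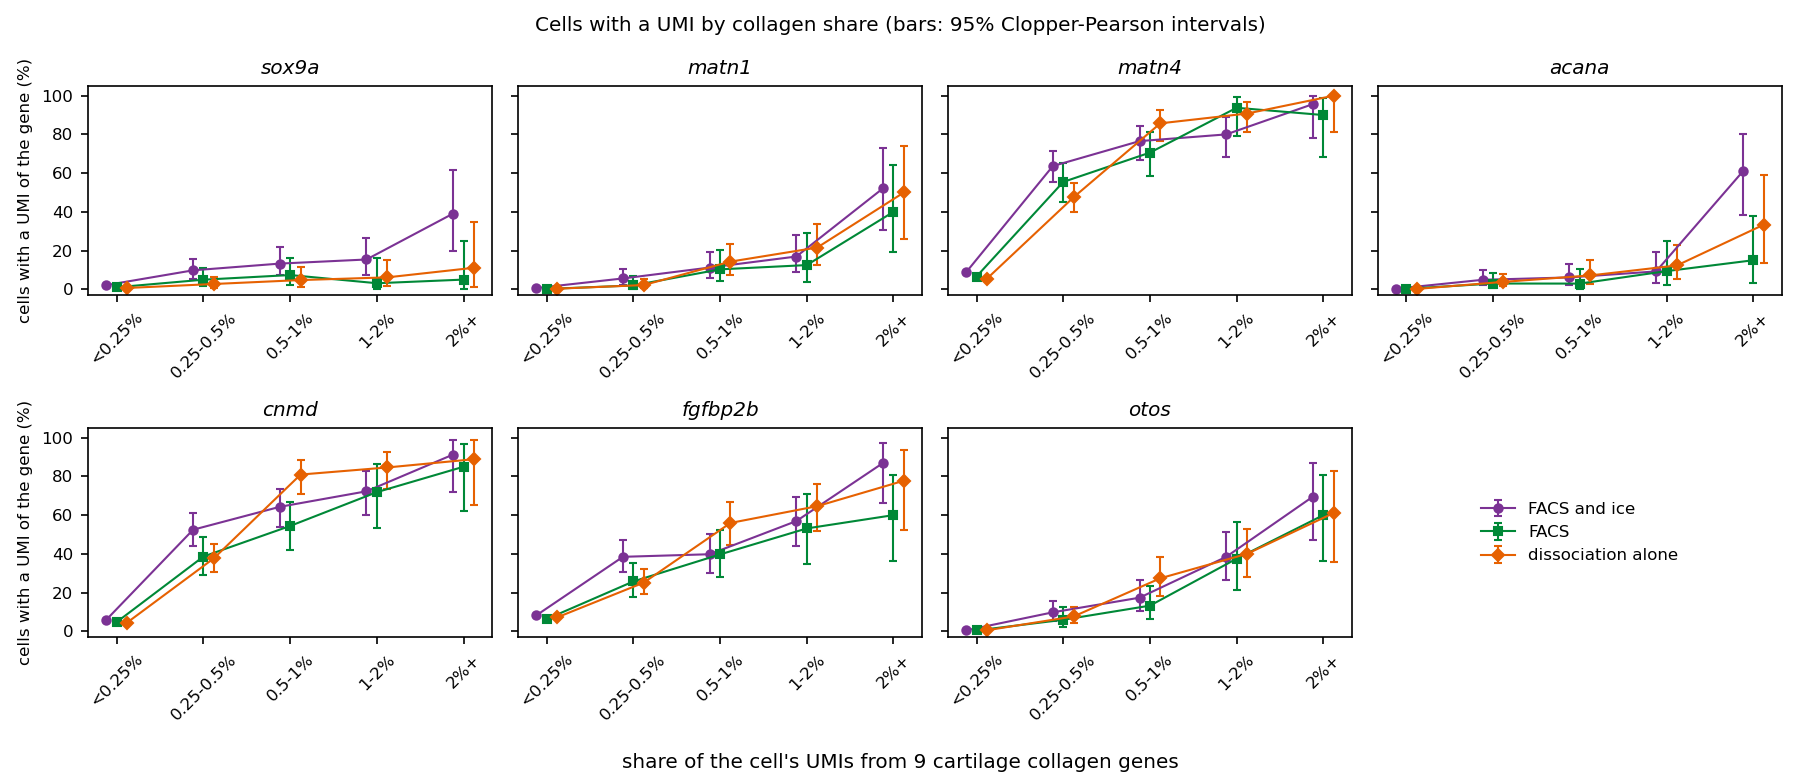
Percent of cells with a UMI of each gene (panels) by the share of the cell's UMIs that came from 9 cartilage collagen genes, in 5 classes; lines are libraries and bars 95% Clopper-Pearson intervals. Shares of matn4 and cnmd are already high at 0.5 to 1%, while matn1 climbs mostly in the top class, which holds 23, 20 and 18 cells, and acana does so after FACS and ice and after dissociation alone.

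The genes came up at different collagen shares. In cells with 0.5 to 1% of their UMIs from collagens, matn4 was found in 76.5%, 70.6% and 85.7% and cnmd in 64.3%, 54.4% and 81.0%, but matn1 in 11.2%, 10.3% and 14.3%. In the 23, 20 and 18 cells with 2% or more, matn1 was found in 12, 8 and 9 cells and acana in 14, 3 and 6. The level of matn1 in these top cells was 4154, 1083 and 2446 CPM, against 894, 300.4 and 415 CPM at 1 to 2%. For matn4 the same levels were 1728, 2571 and 2459 CPM against 1253, 1635 and 1569 CPM.

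Within collagen-rich cells, each pair of genes was taken in both orders, 42 in all, and the orders of a pair always go the same way. For 42, 42 and 34, a larger share of cells with the gene named first had the second than of cells without the first. The 8 others after dissociation alone were sox9a with matn1, cnmd and fgfbp2b, and matn1 with otos, in both orders. Cells with sox9a, for example, had fgfbp2b in 3 of 6, against 53 of 77 without sox9a. At least 3 of the 7 were found in 56 of 88 cells (63.6%), 33 of 52 (63.5%) and 61 of 83 (73.5%), against 2.54%, 2.08% and 1.56% of the other cells. All of the 23, 12 and 23 collagen-rich cells with matn1 also had cnmd, while among those without matn1 69.2%, 70.0% and 80.0% had it. Cells with otos had fgfbp2b in 39 of 41, 18 of 24 and 34 of 37, against 18 of 47, 11 of 28 and 22 of 46 without otos. Deeper cells show more of every gene, and the part of depth in this was not tested. No share over pairs of other genes was counted, so the counts of pairs do not set the 7 genes apart. After FACS, the pairs with sox9a rested on 2 cells with a UMI of it.

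Outside the collagen-rich cells, the cells with at least 3 UMIs of a gene, a limit chosen after the data were seen, differed between genes in some lists and not in others. The arch and mesenchyme genes were higher than in the remaining cells for 3 of the genes, 2.27-fold, 2.38-fold and 2.93-fold for matn4, 2.16-fold, 2.20-fold and 3.13-fold for cnmd, and 2.72-fold, 2.81-fold and 3.55-fold for fgfbp2b. For matn4 these were 430, 181 and 266 cells, and 97.7%, 95.6% and 98.5% of them had a collagen UMI. Of all cells, 2911 of 9550, 1248 of 4609 and 2991 of 11043 had a collagen UMI. The matn4 cells were also deeper, with a median of 9866 UMIs after FACS and ice against 3984 outside the collagen-rich cells. The part of depth in these values was not tested for the matn4 cells. Their fibroblast genes were 3.47-fold, 3.87-fold and 3.59-fold and their fin genes 4.60-fold, 3.07-fold and 5.01-fold higher, their inner ear genes 2.66-fold, 9.26-fold and 2.67-fold, and their muscle genes 0.182-fold, 3.90-fold and 0.991-fold. For cnmd (244, 96 and 162 cells) the fibroblast genes were 2.00-fold, 2.06-fold and 2.09-fold higher, but the fin genes 0.146-fold, 0.0419-fold and 0.0887-fold. For fgfbp2b (321, 167 and 277 cells) the fibroblast genes were 0.934-fold, 0.714-fold and 0.737-fold. Few cells passed the limit for sox9a, matn1 and acana after FACS and ice, and their arch and mesenchyme genes did not go 1 way. They were 2.12-fold (1.66 to 2.67) for sox9a in 6 cells, 0.731-fold (0.503 to 1.03) for matn1 in 12 cells and 0.486-fold (0.251 to 0.849) for acana in 4 cells.

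The third question was which of these RNAs were made while the larvae came apart. The T-to-C rate, the percentage of T positions of the reference read as C, had a median of 0.141%, 0.106% and 0.0814% over genes with at least 250 reads in the cartilage tables. The 2 matrilins were below it in every library, matn1 at 0.0867%, 0.0523% and 0.0476% and matn4 at 0.0640%, 0.0440% and 0.0434%. For matn1 between 7 and 8, and for matn4 between 9 and 10, of the 11 other substitution types had a higher rate. The deposited rates give no number of positions, so no interval can be set on them.

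The regulator sox9a stood apart after FACS and ice, with 1.08% from 411 reads, against 0.0728% after FACS (149 reads) and 0.0665% after dissociation alone (89 reads). None of the 11 other types exceeded it after FACS and ice, where the highest was 0.187%. Over all cell types, weighted by reads, sox9a had 0.814%, 0.474% and 0.325%, and single types with at least 50 reads of it ran from 0.300 to 3.34%, from 0 to 2.69% and from 0.0665 to 0.953%, so that the cartilage contrast was not found at that size over all types. Aggrecan had 0.483%, 0.0406% and 0.462% from 264, 167 and 130 reads, and none of the other types exceeded it after FACS and ice or after dissociation alone. All of these rates rest on few reads.

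For cnmd, fgfbp2b and otos the T-to-C rate was above the table median in every library, but so were other types. Chondromodulin had 0.810%, 0.995% and 0.507%, and its G-to-A rate was 1.49%, 2.45% and 1.28%. The gene fgfbp2b had 0.879%, 0.778% and 0.508%, and its A-to-T rate, 2.00%, 1.99% and 1.93%, was more than its T-to-C rate in each library. Over the 10 cell types with at least 50 reads of it in each library, the T-to-C rate of fgfbp2b lay between 0.470 and 1.11%, 0.701 and 0.827%, and 0.413 and 0.679%. Otospiralin had 0.381%, 0.545% and 0.673%, with C-to-T at 0.719%, 1.09% and 1.19%. No filter for sequence variants is stated for these tables, and the part of variants in these rates was not tested.

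**Figure D4:**
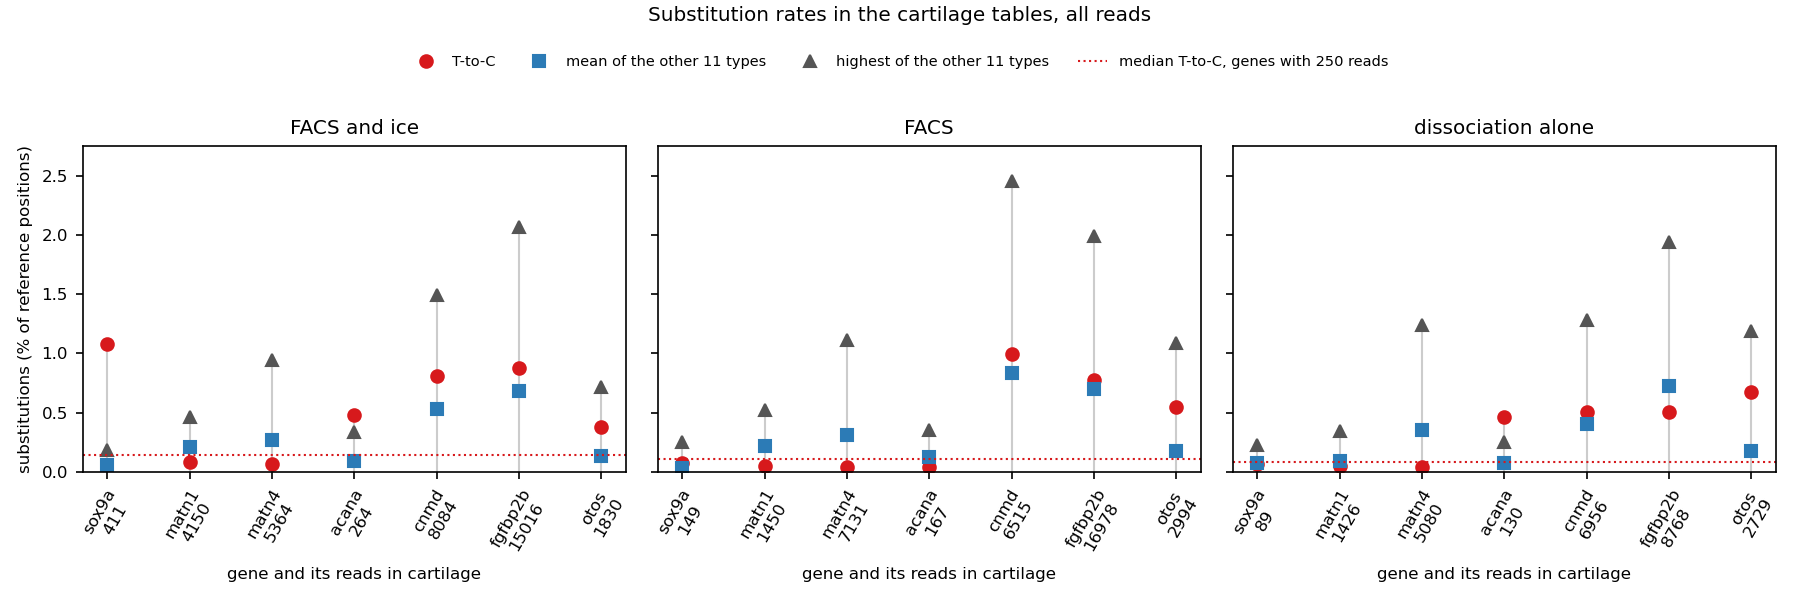
T-to-C rate (circles), the mean of the other 11 substitution types (squares) and the highest of them (triangles), in percent of reference positions, for each gene in the cartilage table of each library, with the number of reads below the gene name; the dotted line is the median T-to-C rate of genes with at least 250 reads. Only sox9a after FACS and ice and acana after FACS and ice and after dissociation alone have a circle above the triangle.

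Labelled entries, from reads with at least 2 T-to-C substitutions, were fewest for matn1: 0 in cartilage beside 4150, 1450 and 1426 reads, which allows up to 0.0723, 0.207 and 0.210 per 100 reads. The other matrilin, matn4, had 7, 2 and 5 entries, cnmd 11, 9 and 8, otos 2, 0 and 2, acana 3, 0 and 1, and sox9a 2, 0 and 0. The gene fgfbp2b had most, 153, 41 and 47 entries, or 1.02 (0.865 to 1.19), 0.241 (0.173 to 0.327) and 0.536 (0.394 to 0.712) per 100 reads, beside 0.467, 0.177 and 0.336 per 100 reads over all genes in cartilage. In the other cell types it had 0.927, 0.416 and 0.552 entries per 100 reads, where all genes had 1.503, 1.82 and 1.47. Most of the entries over all genes came from the blood tables: without blood, fgfbp2b had 0.916, 0.452 and 0.563 and all genes 0.555, 0.359 and 0.393 per 100 reads, so that fgfbp2b was below all genes with blood and above them without it. Entries and reads do not count the same thing, so these are no shares of molecules: per 100 UMIs of the library, fgfbp2b had 2.17, 1.36 and 1.31 entries. Called highly labelled, with at least 250 reads and entries for at least 10% of them, were 0 of the 7 genes in any cell type, beside 1.03%, 0.302% and 0.8% of genes with 250 reads in cartilage (21, 6 and 12 genes). After FACS and after dissociation alone, sox9a and acana had under 250 reads in every cell type and could not be called. The call sets entries against reads, so it can also differ between libraries with the number of reads per molecule. The shares over all genes were counted in cartilage only, and at such low shares a count of 0 does not set the 7 genes apart. No filter for sequence variants is stated for the entries, and the part of variants in them was not tested.

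The authors also listed, for each cell, which genes were found and which of those were labelled, and a gene listed for a cell is 1 detection. These lists name fgfbp2b in 57, 28 and 17 cells that have no UMI of it in the matrix. It was labelled in 140 of 963 detections after FACS and ice (14.5%, 12.4 to 16.9), in 59 of 386 after FACS (15.3%, 11.8 to 19.3) and in 70 of 932 after dissociation alone (7.51%, 5.90 to 9.39). Over all genes the shares were 4.12%, 3.73% and 2.80%. This contrast is not at equal UMIs, because a cell with more UMIs of a gene can be listed as labelled through any of them. Nor is a filter for sequence variants stated for these lists, and the part of variants in the labelled shares was not tested. Cells with fgfbp2b held 10.9, 15.6 and 6.75 UMIs of it on average. In cells with 1 UMI of it the share was 2.12%, 0.746% and 0.595%, and no share over all genes was counted at equal UMIs. In collagen-rich cells the share of fgfbp2b was 47.4% (34.0 to 61.0), 44.8% (26.4 to 64.3) and 26.3% (15.5 to 39.7), with intervals that overlap. Next in these cells came cnmd with 8.82%, 7.50% and 5.63%. It was followed by matn4 after FACS and ice (6.76%) and after FACS (4.17%). After dissociation alone matn4 (2.60%) lay below otos (5.41%, 2 of 37 detections). In collagen-rich cells matn1 had none in 23, 12 and 23 detections. Over all cells of the matrix cnmd had 2.54%, 2.70% and 1.99%. There sox9a had 4.02%, 6.78% and 4.55%, and acana 6.56%, 0% and 2.13%, each from at most 10 labelled detections.

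**Figure D5:**
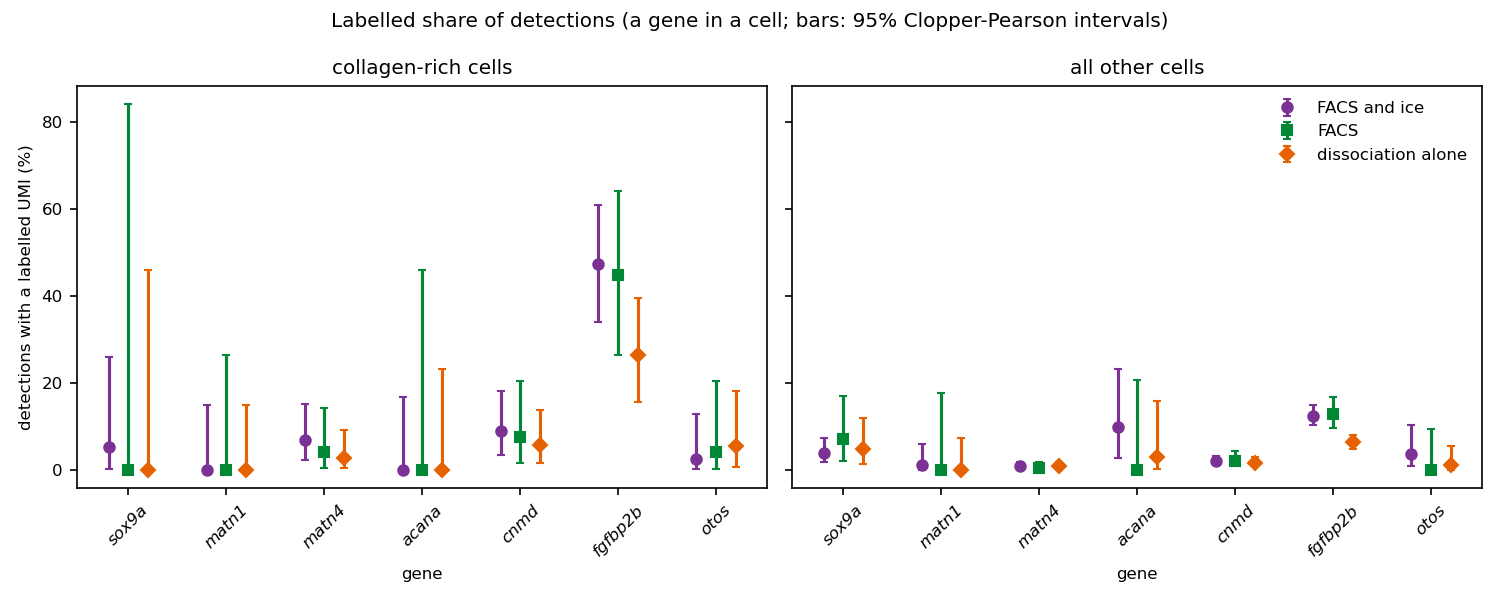
Percent of detections (a gene listed for a cell) that were labelled, in collagen-rich cells (left) and in all other cells (right), for each gene and library; bars are 95% Clopper-Pearson intervals. In both panels fgfbp2b is highest in every library, and its FACS and ice and FACS points lie above its dissociation point.

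The labelled share climbed with the number of UMIs of the gene in the cell. For fgfbp2b it was 2.12%, 0.746% and 0.595% in cells with 1 UMI, 24.4% (17.9 to 31.9), 20.2% (12.4 to 30.1) and 11.4% (6.99 to 17.2) with 6 to 20 UMIs, and 62.3% (53.4 to 70.7), 56.3% (43.3 to 68.6) and 47.8% (37.1 to 58.6) above 20 UMIs. At more than 20 UMIs cnmd was labelled in 6 of 30, 1 of 6 and 3 of 14 cells and matn4 in 2 of 15, 1 of 13 and 3 of 10, whereas matn1 was labelled in 0 of 13, 0 of 3 and 0 of 4.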

How the data were processed

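From whole zebrafish larvae the authors made 3 droplet single-cell libraries with 3′ reads, mapped with Cell Ranger 6.1.1 to GRCz10, with mismatch tags added by SAMtools 1.14 (bcl2fastq 2.19 for demultiplexing). The authors deposited raw UMI counts per gene and cell, read counts per gene and cell type, and, at base quality of at least 20, the rate of each of 12 substitution types as a ratio of substitutions to reference positions. They also deposited counts of labelled entries, with at least 2 T-to-C substitutions, which do not count the same thing as reads. For each cell they gave the names of genes found and labelled. Groups follow the treatment given in the sample labels.

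Levels were computed with Python 3.11.15, numpy 2.4.6, pandas 2.3.3 and scipy 1.17.1, with exact Poisson, Clopper-Pearson and conditional binomial intervals. With 1 library per group no test was run. Scripts were tested on simulated data. Alternatives covered scaling, denominators, read minimums, pseudocounts, the collagen limit, thinning and cells left out. The members and lists were chosen with earlier results of these data known. Named genes were the 7 members, the 3 list genes with most cartilage RPM after FACS and ice, and the closest genes by correlation. Genes named for cells of other types followed the same lists, but which of them to print was chosen after their values were seen, as were the collagen classes, the haemoglobin-rich class (at least 30% haemoglobin UMIs) and the 3-UMI limit. Doublets were not called. Gene positions and sequences were not used here.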

Additional observations from a re-analysis of the deposited data

Results flagged for a closer look

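In 4 cases a ratio lay on one side of 1 in cartilage and on the other in the other cell types pooled, with both intervals apart from 1. Each group was 1 library, and these differences were not tested. For matn4, the FACS and ice ratio to dissociation alone was 0.751-fold in cartilage and 1.44-fold in the other types, and the FACS ratio to dissociation alone was 0.923-fold and 1.49-fold. For acana, the FACS and ice ratio to dissociation alone was 1.45-fold in cartilage and 0.595-fold in the other types, and the ratio of FACS and ice to FACS was 1.71-fold and 0.428-fold. In the other types acana had 49, 112 and 79 reads. Several reads can come from 1 molecule, and acana had 29 UMIs in the whole FACS library, so these intervals are too narrow. The FACS ratio of acana to dissociation alone, 0.844-fold in cartilage and 1.39-fold in the other types, also lay on opposite sides, but its interval in cartilage, 0.667 to 1.07, included 1.

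The per-cell list of the FACS library also held 1182743 barcodes outside its cell list. There fgfbp2b was labelled in 12 of 656 detections, or 1.83% (0.949 to 3.17), against 15.3% in the cells of that library. This contrast is not at equal depth: in cells with 1 UMI of fgfbp2b the share was 0.746% (0.0189 to 4.09). The UMIs of the gene in the barcodes outside the cell list were not counted. Over all genes the share was 2.68% in these barcodes, against 3.73% in the cells. The result was singled out only because it comes from data that no comparison used.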

How the results depend on the processing

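In all 3 libraries the 7 genes stayed at least 5-fold higher in cartilage under each of 3 alternative scalings or references (9 of 9 counts), where acana has no fold against the median of the other types after FACS and after dissociation alone, that median being 0. The sizes of the folds did move: 45 of 61 alternative values lay outside the interval of the reported fold. Of 42 alternative T-to-C rates over all cell types, 29 differed from the reported rate by more than 10%. For labelled entries per 100 reads and for labelled shares of detections, 14 of 21 alternative values each lay outside the reported interval. Without a minimum of reads, 3.76%, 4.53% and 3.98% of all genes passed the 5-fold limit after FACS and ice, FACS and dissociation alone. At 100 reads and 5% of entries, 122, 38 and 54 genes were highly labelled in cartilage.

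Ratios between libraries depended on the cells used. Of 126 alternative values, 10 lay on the other side of 1 from the reported ratio, 5 of them for matn1 and acana, FACS over dissociation alone, whose reported intervals included 1. In collagen-rich cells alone matn4 was 0.820-fold after FACS and ice over dissociation alone, and FACS over dissociation alone sox9a was 0.583-fold, cnmd 0.688-fold and otos 0.920-fold. Without the 10 cells with most UMIs of it, otos was 0.864-fold. The cause was not tested.

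FACS and ice over dissociation alone, counting UMIs per cell gave 6 genes at least 1.5-fold higher and 0 lower. FACS over dissociation alone, 1 gene was higher without the 5% deepest cells, 1 without the 10 cells and 0 in collagen-rich cells, where 1 was lower. FACS and ice over FACS, 1 gene was higher on the median-ratio scale and 4 in collagen-rich cells, and 1 was lower per cell, 1 without the deepest cells, 0 in collagen-rich cells and 0 without the 10 cells. The alternative without the 10 cells was chosen after seeing the data. No paired analysis was possible because each group had 1 library and no test was run, and no library could be left out. Depth limited sox9a and acana most, with 29 to 292 UMIs per library.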
